A study of Arabidopsis thaliana x Arabidopsis arenosa with 4 samples.

Results

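The comparison set siliques of a cross between tetraploid Arabidopsis thaliana Col-0 and tetraploid Arabidopsis arenosa, labelled as an F1 hybrid, beside siliques of the allotetraploid line Allo733. Its members were all 887 transcripts that the authors listed with a value in both libraries, reduced to 1 transcript per locus by the highest mean, which left 791 genes. They are 5.07% of the 15613 genes with a value in the Col cross, and the listed transcripts hold 35.0% of its summed RPKM (reads scaled to the transcript's length and to the library's total, so that levels are per length).

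The Col cross was made between 4x Col-0 (line 1757) and 4x A. arenosa (CS3901) by emasculating flowers by hand and pollinating them the next day. A silique from such a flower holds the wall of the seed parent with the hybrid seeds inside, and the labels do not state outright which species was the seed parent. The median share of A. arenosa reads over all genes of this library was 4.92%. Allo733 (CS3895) is an allotetraploid line in generation 8, and its label gives Ler, not Col, as the A. thaliana ecotype. Both libraries came from siliques 4 days after pollination, of plants grown at 22 °C with 16 h of light. The A. thaliana ecotype, the generation, the genotype of the fruit wall and the hand pollination stated for crosses thus may all differ together between the 2 libraries, and their parts cannot be told apart. There was 1 library a side, so no spread between replicates exists and no p-value is given. A gene is called higher or lower here by size alone, at 2-fold on the scale log2(RPKM + 0.1). Levels from the F1 crosses with C24 and Ler stand beside these values in places, from tables that were normalised separately.

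An allotetraploid holds the full chromosome sets of 2 species in one nucleus. In crosses between A. thaliana and A. arenosa many seeds are known to die early, while lines selfed for several generations set viable seed. The silique is the seed pod, a green, photosynthesising fruit wall around the young seeds. In a whole silique fewer cells of a type and less RNA per cell cannot be told apart.

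The tissue was checked by marker lists in the Col cross. The Col cross gave values for 6 of 7 fruit wall and valve markers, which sum to 20394 RPKM. Nearly all of that sum is CAB1 (12876 RPKM) and RBCS1A (7377 RPKM), which any green tissue expresses, while the fruit genes FUL, SHP1, SHP2 and STK had 37.0, 28.9, 31.2 and 44.0 RPKM. Values were also given for 3 of 6 seed coat markers, which sum to 1639 RPKM. Nearly all of that sum is TT4 at 1585 RPKM. AHA10 and TT8 had 35.7 and 17.8 RPKM, and BAN, TT12 and TT10 had no value. In the Col cross 6 of 6 xylem and fibre markers, which sum to 175 RPKM, and 10 of 11 pollen markers, which sum to 76.8 RPKM, had values. None of the 7 endosperm and none of the 6 embryo maturation markers was among its listed genes. Of the markers, CAB1 and RBCS1A (fruit wall), TT4 (seed coat), AGP23 (pollen) and 3 of the xylem list were listed with Allo733.

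Several results below concern neighbouring copies of a gene. The promoters of 3 such neighbouring pairs are shown because their members went together or apart: the cold-induced genes KIN1 and KIN2, the light-harvesting genes CAB1 and CAB2, and the ARGONAUTE genes AGO2 and AGO3. Each is the 250 bases before the gene start in RefSeq's annotation of TAIR10.1, written 5′ to 3′ along the gene. The files name genes but carry no coordinates, and the authors' build was TAIR9. Capitals mark the longest run of letters that both promoters of a pair hold. Unrelated promoters also share some run, and its usual length was not worked out, so short runs are shown without a reading. KIN1 lies at chr5:5209467-5209716 on the plus strand and KIN2 at chr5:5211469-5211718 on the plus strand, and their run has 37 bases.
KIN1: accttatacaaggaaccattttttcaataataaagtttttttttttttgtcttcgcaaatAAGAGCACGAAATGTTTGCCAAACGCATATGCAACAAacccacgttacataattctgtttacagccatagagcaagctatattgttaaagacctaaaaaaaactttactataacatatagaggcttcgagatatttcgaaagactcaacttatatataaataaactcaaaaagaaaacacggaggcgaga
KIN2: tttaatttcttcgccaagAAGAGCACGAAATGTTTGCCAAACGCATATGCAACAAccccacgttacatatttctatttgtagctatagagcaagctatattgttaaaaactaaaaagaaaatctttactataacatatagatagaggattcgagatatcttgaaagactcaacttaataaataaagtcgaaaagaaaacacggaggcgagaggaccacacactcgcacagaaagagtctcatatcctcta
CAB1 lies at chr1:10477635-10477884 on the plus strand and CAB2 at chr1:10475970-10476219 on the minus strand, and their run has 9 bases.
CAB1: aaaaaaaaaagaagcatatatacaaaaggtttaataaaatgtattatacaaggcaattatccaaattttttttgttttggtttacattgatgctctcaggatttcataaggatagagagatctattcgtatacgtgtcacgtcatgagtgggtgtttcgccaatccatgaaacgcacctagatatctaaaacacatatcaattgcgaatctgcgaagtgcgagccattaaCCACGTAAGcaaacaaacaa
CAB2: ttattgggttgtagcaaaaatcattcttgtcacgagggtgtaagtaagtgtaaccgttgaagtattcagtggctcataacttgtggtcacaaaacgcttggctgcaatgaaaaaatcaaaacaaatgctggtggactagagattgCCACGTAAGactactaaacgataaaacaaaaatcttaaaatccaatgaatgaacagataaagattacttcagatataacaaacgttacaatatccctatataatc
AGO2 lies at chr1:11181254-11181503 on the plus strand and AGO3 at chr1:11187870-11188119 on the plus strand, and their run has 11 bases.
AGO2: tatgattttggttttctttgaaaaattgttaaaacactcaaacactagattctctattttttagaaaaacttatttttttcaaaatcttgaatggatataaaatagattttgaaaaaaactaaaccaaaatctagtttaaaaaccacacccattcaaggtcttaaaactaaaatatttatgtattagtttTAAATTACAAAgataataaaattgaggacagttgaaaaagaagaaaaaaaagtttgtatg
AGO3: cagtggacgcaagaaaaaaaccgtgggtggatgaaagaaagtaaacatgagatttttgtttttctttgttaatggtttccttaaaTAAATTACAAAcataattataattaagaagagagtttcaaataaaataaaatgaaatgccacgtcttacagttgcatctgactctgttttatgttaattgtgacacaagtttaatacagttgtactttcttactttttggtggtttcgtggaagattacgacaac

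Of the 791 genes, 252 (31.9%) were at least 2-fold higher in the Col cross than in Allo733 and 230 (29.1%) were at least 2-fold lower, 482 (60.9%) in all. At 4-fold there were 84 higher genes (10.6%) and 93 lower genes (11.8%). The median log2 ratio was -0.25, with 374 genes above 0. The higher genes had a median of 70.6 RPKM in the Col cross and 23.0 in Allo733. The lower genes had a median of 11.9 RPKM in the Col cross and 41.7 in Allo733. Since the listed genes alone were at hand, these shares describe the list and not the transcriptome. The counts of gene groups below are to be read beside the 31.9% and 29.1% of the whole list.

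**Figure D1:**
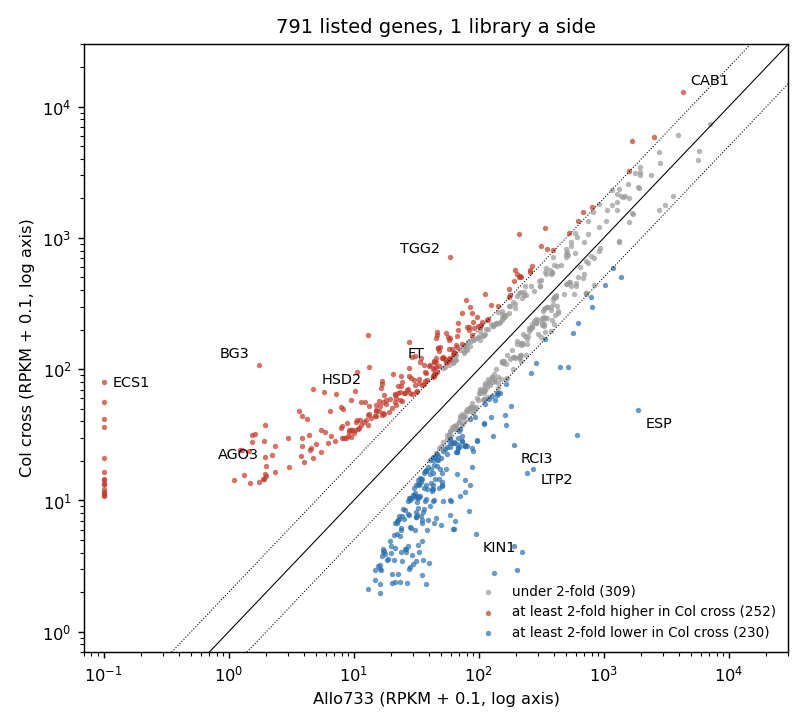
Level of each of the 791 genes in Allo733 (x axis, RPKM + 0.1, log scale) and in the Col cross (y axis, same unit), 1 point per gene. The solid line marks equal levels and the dotted lines 2-fold. Red points are the 252 higher genes, blue points the 230 lower genes, and the column at the left edge holds the 15 genes listed at 0 in Allo733.

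The authors' choice of transcripts depended on level, as the listed ratios show. Among genes with a mean under 20 RPKM the smallest absolute log2 ratio was 1.41, between 100 and 200 RPKM it was 0.32, and above 1000 RPKM it was 0.06. The listed share of all genes of the Col cross climbed with their level from 1.74% under 20 RPKM to 86.0% at 1000 RPKM or more. A weakly expressed gene therefore entered only with a large ratio, and the most abundant genes entered at almost any ratio.

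**Figure D2:**
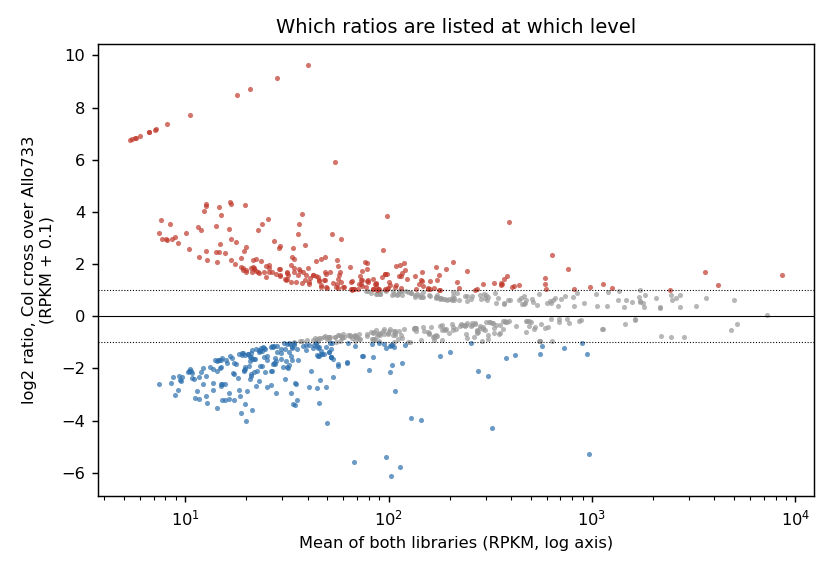
The log2 ratio of the Col cross over Allo733 (y axis, RPKM + 0.1) against the mean level of both libraries (x axis, RPKM, log scale) for the 791 genes. The empty wedge around 0 narrows from left to right: no gene with a mean under 20 RPKM has an absolute log2 ratio under 1.41, while genes above 1000 RPKM reach down to 0.06.

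The light-harvesting and photosystem genes made the most abundant group that stood higher. Of 28 genes in this list, 22 were listed, 20 of them above 0 and 5 at least 2-fold higher, with none 2-fold lower. Their median log2 ratio was 0.70 beside -0.25 for all listed genes. Over the whole list 31.9% were higher and 29.1% lower, so the count of higher genes does not set the group apart. Among all 44 listed genes with a mean of 1000 RPKM or more, 6 were higher and none lower. CAB1, which encodes a chlorophyll-binding antenna protein of photosystem II, stood at 12876 RPKM in the Col cross and 4294 in Allo733, a log2 ratio of 1.58. Its neighbour CAB2 stood at 5484 and 1683 RPKM (log2 ratio 1.70), while the third gene of the cluster, CAB3, stood at 4524 and 2784 RPKM (log2 ratio 0.70). The antenna genes of this cluster thus went the same way by different amounts. Of the 36-base windows of the CAB1 transcript 33.0% also occur in another gene, mainly CAB2, so part of the reads could have been assigned to either copy. LHCB3, another antenna gene, stood at 3234 and 1606 RPKM, and PSAE-1, a subunit of photosystem I, at 1708 and 810 RPKM. The C24 and Ler crosses had levels of CAB1 near that of the Col cross, 10054 and 14475 RPKM.

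The exceptions in this list were small subunits of Rubisco, the enzyme that fixes carbon dioxide. RBCS1B stood at 2088 RPKM in the Col cross and 3608 in Allo733, and RBCS2B at 4627 and 5738 RPKM. RBCS1A was nearly level at 7377 and 7073 RPKM, and RBCS3B was higher at 3453 against 1951 RPKM. Of the transcript windows of RBCS2B, RBCS3B and RBCS1B, 33.2%, 23.1% and 17.7% also occur in other genes, mainly in RBCS1B or RBCS2B. Part of their reads could thus have been assigned to another copy, and their separate ratios are uncertain. RBCS1A shares 3.33% of its windows. Its log2 ratio of 0.06 lay below the median of 0.70 for the list of light-harvesting and photosystem genes. PSBP-2, a second copy of a photosystem II gene that was not in the list, was 10.3 times lower in the Col cross, 5.99 against 61.8 RPKM, while the main copy PSBP-1 stood at 1208 against 912 RPKM.

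Aquaporins, the channels that pass water through the plasma membrane and the vacuole membrane, were also mostly higher. Of 19 genes 11 were listed, 7 at least 2-fold higher, 1 lower and 3 between, with a median log2 ratio of 1.11. Over the whole list 31.9% of genes were higher and 29.1% lower. DELTA-TIP, of the vacuole membrane, stood at 864 RPKM against 316. The plasma membrane gene PIP3 stood at 1342 against 622 RPKM, and PIP1C at 251 against 96.3 RPKM. The largest ratio belonged to TIP2;2, with 23.3 RPKM in the Col cross and 5.42 in Allo733. The members below 0 were PIP2;8, at 10.8 against 29.9 RPKM, and TIP2, at 495 against 678 RPKM.

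Proteins of the cell surface that carry arabinogalactan sugars formed a further group, drawn up after the values were seen. Of 49 arabinogalactan and fasciclin-like genes, 15 were listed, 9 at least 2-fold higher and none 2-fold lower, with a median log2 ratio of 1.16. The whole list had 31.9% of its genes higher and 29.1% lower. AGP17 stood at 103 RPKM against 13.1, AGP7 at 55.8 against 11.3, and AGP12 at 535 against 201 RPKM. FLA2, a fasciclin-like member, stood at 573 against 257 RPKM. AGP31 and FLA11 lay below 0, with log2 ratios of -0.92 and -0.81.

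The listed genes of the secondary cell wall mostly went the other way. This wall thickens xylem vessels and fibres, and its cellulose is made by the synthases CESA4, IRX3 (CESA7) and IRX1 (CESA8). Of 25 genes in the list 20 had a value in the Col cross and 8 were listed with Allo733. Of these 8, 4 were at least 2-fold lower and none higher, beside 29.1% lower and 31.9% higher over the whole list. Their median log2 ratio was -0.97, and 7 lay below 0. From a mean of 20 to 50 RPKM, where CESA4, IRX1, IRX3 and IRX6 lie, no gene was listed under an absolute log2 ratio of 0.77. Of the 196 genes listed at that level 78 were higher and 104 lower. The choice of transcripts thus enters both this count and this median. CESA4 stood at 20.9 RPKM in the Col cross against 49.9 in Allo733, IRX1 at 20.2 against 47.1, and IRX3 at 17.7 against 38.9 RPKM. IRX6, a COBRA-like protein needed for the same wall, stood at 14.3 against 32.8 RPKM. The factors of the 3 cellulose synthases lay between 2.20 and 2.39. Since smaller ratios were not listed at this level, their likeness is not read as a result. In the C24 cross the same synthases stood at 168, 128 and 120 RPKM, above both libraries, and in the Ler cross at 23.9, 17.3 and 17.2 RPKM, near the Col cross. FLA12, a fasciclin-like gene of fibres, was the exception at 225 against 138 RPKM. The listed xylem markers of the tissue check, which are these synthases, summed to 58.9 RPKM against 136, and the part of xylem content in the result was not tested.

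Enzymes that loosen and rebuild the primary wall split. Of 18 expansins 5 were listed: EXPA8 was higher, at 168 against 57.4 RPKM, and EXPA4, EXPA5 and EXPA15 lay below 0 with log2 ratios between -0.88 and -0.52. EXPA10 belongs to the genes with transcripts on opposite sides of 0 described further on. Xyloglucan endotransglucosylases, which cut and rejoin the polymer that ties cellulose together, were drawn up as a group after the values were seen. Of 33 genes 8 were listed, 3 higher and 3 lower. XTH15 stood at 25.1 against 4.43 RPKM, whereas XTH31 stood at 2.92 against 27.6 and XTH7 at 37.6 against 167 RPKM.

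Glucosinolates are the mustard oil precursors of the cabbage family. Myrosinases such as TGG1 and TGG2 split them when tissue is damaged, and specifier proteins such as ESP and NSP5 steer the products toward nitriles in place of isothiocyanates, which ESM1 favours. Natural accessions are known to differ in this system. TGG2 stood at 722 RPKM in the Col cross and 58.9 in Allo733, a log2 ratio of 3.61, while the crosses with C24 and Ler stood at 1182 and 2.91 RPKM. TGG1 stood at 501 against 217 RPKM, and NSP5 at 153 against 66.2 RPKM. The splitting enzymes and this specifier were thus higher in the Col cross. ESM1 went the other way, at 104 against 449 RPKM.

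The specifier ESP gave the largest difference in level of all lower genes. Its main transcript stood at 48.8 RPKM in the Col cross against 1876 in Allo733, while the crosses with C24 and Ler had 4874 and 4150 RPKM. The Col cross was therefore the low one of the 4 libraries. A shorter listed transcript of ESP stood at 51.8 against 9.86 RPKM, and with both summed the log2 ratio was -4.23 in place of -5.26.

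The synthesis of aliphatic glucosinolates was represented by 2 of 22 genes, both lower. BCAT4, which starts the elongation of methionine, stood at 2.25 RPKM against 26.5, and CYP83A1, which oxidises the aldoximes, at 6.83 against 64.0 RPKM. The Ler cross had 62.3 and 122 RPKM for these genes and the C24 cross 7.15 and 15.6 RPKM, so the order of the crosses was the same for both. Nitrilases hydrolyse the nitriles that arise from this pathway. NIT2 stood at 31.1 against 129 RPKM and NIT3 at 9.05 against 40.6, while NIT1, which lies between them on chromosome 3, stood at 293 against 194 RPKM.

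**Figure D3:**
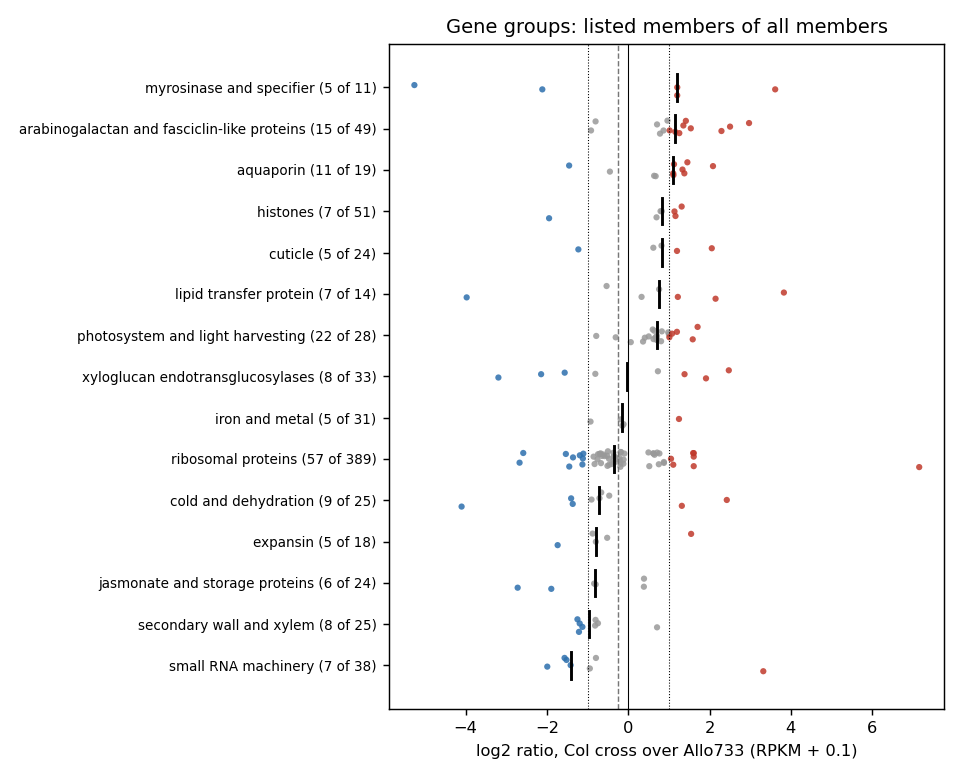
Log2 ratio of the Col cross over Allo733 (x axis, RPKM + 0.1) for the listed members of each gene group, 1 point per gene, with the group's median as a black bar. The dotted lines mark 2-fold, the dashed line the median of all listed genes (-0.25), and the numbers give listed of all members. Arabinogalactan proteins (median 1.16) and aquaporins (1.11) lie mostly to the right and the secondary wall (-0.97) to the left.

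Genes of cold and drought response lay on both sides of 0. Of 25 genes 9 were listed, 2 higher, 3 lower and 4 between, with a median log2 ratio of -0.71 beside -0.25 for all listed genes. With 31.9% higher and 29.1% lower over the whole list, these counts do not set the group apart. KIN1, a small hydrophilic protein made in the cold, stood at 5.43 RPKM in the Col cross and 94.8 in Allo733, and the crosses with C24 and Ler had 90.6 and 119 RPKM. Its neighbour KIN2, whose promoter shares the 37-base run printed above, stood at 235 against 385 RPKM. The neighbours thus lay on the same side with ratios of 17.5 and 1.64. Only 5.79% of the 36-base windows of the KIN1 transcript also occur in KIN2. The desiccation genes LTI78 and ERD10 were lower as well, at 16.2 against 43.2 and 28.3 against 73.1 RPKM. COR15B, a chloroplast protein of cold acclimation, was higher at 26.6 against 4.88 RPKM, and so was COR413IM1 at 113 against 45.2 RPKM.

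Jasmonate is the wound hormone made from membrane lipids. Of 24 genes of its synthesis and response 6 were listed, 2 lower and none higher, with a median log2 ratio of -0.82 beside -0.25 for all listed genes. The share of lower genes was near the 29.1% of the whole list. AOC3, an allene oxide cyclase of the pathway, stood at 8.68 RPKM against 32.6, and CORI3, a cystine lyase induced by coronatine, at 6.60 against 44.1 RPKM. HPL1, the hydroperoxide lyase that competes for the same substrate, was not in the list and stood at 104 RPKM against 514, while the crosses with C24 and Ler had 482 and 485 RPKM. LOX2, the lipoxygenase at the head of the pathway, stood at 1778 against 3102 RPKM, but the storage proteins VSP1 and VSP2 lay above 0 with log2 ratios of 0.39 and 0.38. Lectins, sugar-binding defence proteins grouped after the values were seen, were lower in 4 of 5 listed members, among them JAL23 at 586 against 1195 RPKM.

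Of 19 salicylate defence genes 3 were listed, 2 higher and 1 lower, beside 31.9% and 29.1% over the whole list. The lower one was NIMIN1, which binds the salicylate coactivator NPR1, at 2.90 against 16.0 RPKM. BG3, a beta-1,3-glucanase of the pathogen response, gave the largest ratio of any gene with a value above 0 in Allo733: 107 RPKM against 1.66, a log2 ratio of 5.93. The C24 cross stood at 67.9 RPKM and the Ler cross at 7.75, so the libraries fell into a high and a low pair. SNC1, an immune receptor and the other higher gene of the list, stood at 30.8 against 8.91 RPKM, beside 48.2 for C24 and 9.19 for Ler. For SNC1 too the Ler cross and Allo733 were the low libraries. PLDGAMMA2, a phospholipase D, showed the same split, with 23.6 RPKM for Col, 20.2 for C24, 3.34 for Ler and 1.34 for Allo733. These are single genes, and the part of the ecotype was not tested. FT, GASA1 and AT5G01870 were also lower in Allo733 than in the Col cross, but the Ler cross stood high for them, at 124, 344 and 208 RPKM.

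Nearness of the other crosses to Allo733 was counted over the higher and the lower genes, not over the 309 genes between. Of the higher genes with a value in the other crosses, 103 of 234 (44.0%) stood within 2-fold of Allo733 in the Ler cross and 76 of 243 (31.3%) in the C24 cross. Of the lower genes, 84 of 219 (38.4%) stood within 2-fold of Allo733 in the Ler cross and 65 of 220 (29.5%) in the C24 cross. The Ler cross was thus near Allo733 in more genes than the C24 cross was, in both directions. The Col value was used to choose the genes while the other crosses were not, and all these ratios rest on 1 Allo733 library. Within 2-fold of the Col cross stood 66.2% of the higher genes in the Ler cross and 81.5% in the C24 cross, and 60.3% and 65.0% of the lower genes. A gene can be within 2-fold of both libraries, so these sets overlap.

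**Figure D4:**
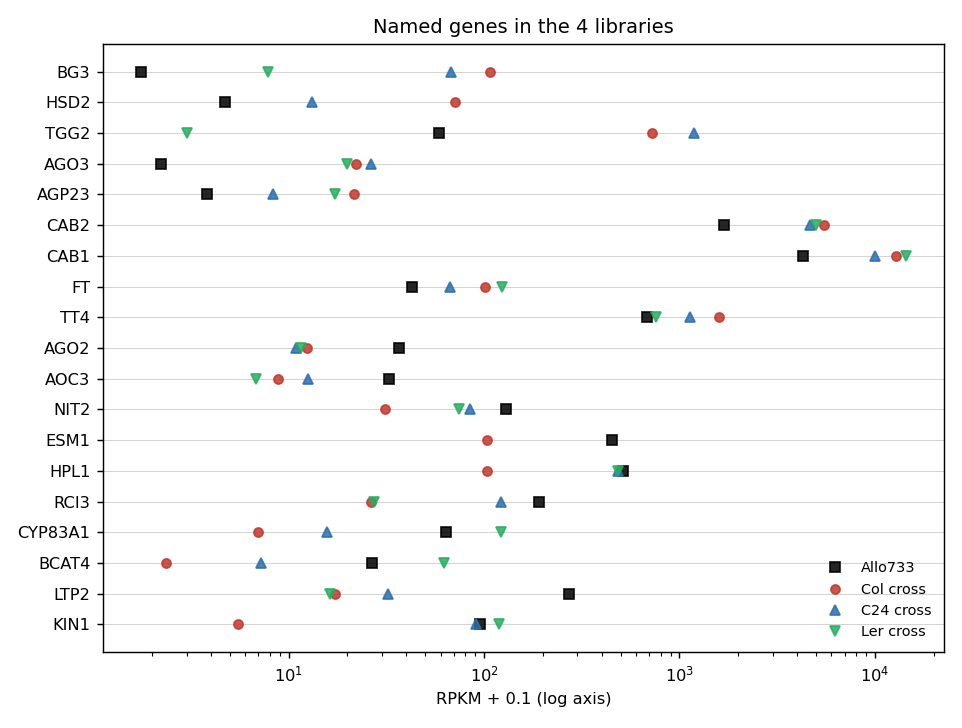
Levels of 19 named genes (y axis) in the 4 libraries (x axis, RPKM + 0.1, log scale), with 1 symbol per library. For KIN1 and HPL1 the Col cross (5.43 and 104 RPKM) stands alone below the other 3, for BG3 the Ler cross (7.75 RPKM) is nearest to Allo733 (1.66 RPKM), and for AGO3 the 3 crosses lie together above Allo733. ESM1 shows symbols for the Col cross and Allo733 alone, since no value from the other crosses was used.

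Lipid transfer proteins, small secreted proteins that bind lipids and coat the surface, stood on both sides of 0. Of 14 genes 7 were listed, 3 higher and 1 lower, with a median log2 ratio of 0.76. LTP6 stood at 5859 RPKM against 2519, and AT5G01870 at 183 against 12.8 RPKM. LTP2 was the lower member, at 17.2 against 272 RPKM, while its neighbour LP1 (LTP1) stood at 2392 against 1909 RPKM. Among the genes of the cuticle, LACS1, an acyl-CoA synthetase for wax and cutin, stood at 193 against 46.4 RPKM, and WSD1, the wax ester synthase, at 57.8 against 136 RPKM. The cuticle list had 5 of 24 genes listed, 2 higher and 1 lower, with a median log2 ratio of 0.82. Beside the 31.9% higher and 29.1% lower of the whole list, the counts of both groups are small.

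Genes of small RNA pathways were drawn up as a group after the values were seen. Of 38 genes 33 had a value in the Col cross and 7 were listed with Allo733. Of these 7, 4 were lower and 1 higher, beside 29.1% lower and 31.9% higher over the whole list. Their median log2 ratio was -1.42. Of the 196 genes listed with a mean of 20 to 50 RPKM, as AGO2 and SGS3 have, 78 were higher and 104 lower. None of the 196 had an absolute log2 ratio under 0.77, so the choice of transcripts enters both the count and the median. AGO2, an ARGONAUTE of antiviral defence and DNA repair, stood at 12.3 RPKM in the Col cross and 36.7 in Allo733. The adjacent AGO3 stood at 22.0 against 2.11 RPKM, so the pair exchanged rank between the libraries. Few of their 36-base windows are shared, 0.62% of AGO2 and 0.57% of AGO3. The other crosses had 10.8 and 11.5 RPKM of AGO2 and 26.4 and 19.8 of AGO3, close to the Col cross. SGS3, needed to make trans-acting small RNAs, stood at 13.1 against 37.7 RPKM, and AGO4, of RNA-directed DNA methylation, at 39.4 against 76.0 RPKM.

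Some regulators and abundant enzymes were also listed. FT, the flowering signal of leaves, stood at 101 against 42.7 RPKM. TT4, the chalcone synthase that opens flavonoid synthesis, stood at 1585 against 680 RPKM. It is on the seed coat marker list, of which BAN, TT12 and TT10 had no value in the Col cross. FER1, the iron store ferritin, stood at 199 against 83.7 RPKM, beside 25.7 RPKM for C24 and 48.5 for Ler. GASA1, a gibberellin-regulated peptide, was higher at 337 against 78.5 RPKM. Histone genes, grouped after the values were seen, were higher in 3 of 7 listed members and lower in 1, with a median log2 ratio of 0.82. Ribosomal protein genes, also grouped afterwards, had 57 of 389 genes listed, 7 higher and 9 lower, with a median log2 ratio of -0.35, near that of all listed genes. No gene of the lists for seed storage, endosperm MADS-box factors, heat shock, the cell cycle, Polycomb complexes, carpel identity or indolic glucosinolates was listed. A wider group of heat shock proteins, taken by product name, had 4 of 145 genes listed, 3 lower and none higher, with a median log2 ratio of -1.79. These group counts stand beside 31.9% higher and 29.1% lower over the whole list, and that of heat shock proteins is small.

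Large ratios also occurred outside the groups above, here among genes with 1 transcript. After BG3, the higher ones included AT5G63580 (FLS2, annotated as a flavonol synthase) at 31.6 against 1.43 RPKM. MES10, a methylesterase, stood at 37.7 against 1.85, and AT4G23680 at 27.9 against 1.43 RPKM. The lower ones included AT1G27030 at 4.39 against 191 RPKM, AT1G73325, a Kunitz protease inhibitor, at 31.6 against 611, and UBQ13 at 2.22 against 37.6 RPKM. AT1G19550, a glutathione transferase-like gene, stood at 2.68 against 133 RPKM, but 94.4% of its 36-base windows also occur in AT1G19540. CWLP and AT3G22121, both lower, are recorded over the same stretch: 100% of the windows of AT3G22121 lie in CWLP, and their values cannot be told apart.

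In 15 genes the Allo733 value was listed at 0, and these fill all 14 places of the largest ratios, so no fold is given for them. ECS1, a cell wall protein linked to disease resistance, stood at 80.3 RPKM in the Col cross and 3.32 in the Ler cross. AT1G14250, a nucleoside phosphatase family gene, stood at 56.5 RPKM in the Col cross and 113 in the C24 cross. These genes had no other transcript in the Col cross, as was so for 7 of the 15. In the other 8 a further transcript had a value in the Col cross, as for DL1, a dynamin-like gene, whose listed transcript stood at 41.5 and its other transcript at 80.0 RPKM.

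Transcript values of a gene could point in opposite directions. Of 79 genes with 2 or more listed transcripts, 23 had transcripts on opposite sides of 0, and in 12 of them by 2-fold or more each way. In these 23 genes the leading transcript held a median of 95.7% of the gene's listed RPKM in Allo733 and 59.6% in the Col cross. The gene ADK1 shows this pattern, at 54.9% in the Col cross and 98.0% in Allo733. GS2, the chloroplast glutamine synthetase, does not: its leading transcript held 98.1% in the Col cross and 99.0% in Allo733, but was a different one. One GS2 transcript stood at 3.95 RPKM in the Col cross against 224 in Allo733 and another at 199 against 2.2. Summed, the ratio of GS2 was -0.15 on the log2 scale. Over the 23 genes, 22 differed by less than 2-fold once their transcripts were summed, and ESP was the other. BG_PPAP had the most negative ratio of the whole list, -6.11, but -0.08 when summed, and its transcripts carry each other's values in the second table of the same Col library. These ratios describe how reads were divided among transcripts, and for GS2, BG_PPAP and EXPA10 (-1.74, or -0.51 summed) not the output of the gene.

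The share of A. arenosa reads was read from the allele table of the Col cross and was not used to choose the genes. Its median was 4.85% in higher genes, 5.33% in lower genes and 3.83% in those between, beside 4.92% over all genes of the Col cross. Shares of at least 50% occurred in 11 of the 252 higher genes (4.37%), in 6 of the 230 lower genes (2.61%) and in 1 of the 309 genes between, beside 1.34% over all genes. Shares of at least 20% occurred in 45 higher genes (17.9%), 32 lower genes (13.9%) and 13 of those between (4.21%), beside 8.29% over all genes. HSD2, a hydroxysteroid dehydrogenase, stood at 70.6 against 4.62 RPKM with a share of 100%. AT5G01870 had a share of 100% in the Col cross but 3.18% for C24 and 9.42% for Ler, and UMAMIT15, a transporter-like gene, had 95.7% beside 3.23% and 2.14%. Their A. arenosa copies thus made up nearly all of the reading in the Col cross alone among the 3 crosses. AGP23, a pollen gene, stood at 21.6 against 3.72 RPKM, with shares of 100%, 91.5% and 85.5% in the 3 crosses. Among the lower genes RCI3, a cold-induced peroxidase, stood at 26.3 against 190 RPKM with a share of 98.6% in the Col cross and 7.53% and 7.78% in the others. No split by allele was used for Allo733.

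Listed genes on chromosome 4 lay above 0 more often than those on the other chromosomes. This was noticed in the data and is given as a description. Of 121 listed genes on chromosome 4, 82 (67.8%) lay above 0, with a median log2 ratio of 0.82. On the other chromosomes 292 of 670 did (43.6%, between 41.2% on chromosome 3 and 45.0% on chromosome 5), with a median of -0.37. Weakly expressed genes were not listed with ratios near 0, so a small shift can move these medians far. The medians therefore do not measure the size of the difference, which is given below over all genes between crosses. By the 2-fold rule 43.8% of the chromosome 4 genes were higher and 21.5% lower, against 29.7% and 30.4% elsewhere. The difference held at each level of expression: at a mean of 200 RPKM or more 25 of 30 genes of chromosome 4 lay above 0 and 83 of 171 elsewhere, from 50 to 200 RPKM 28 of 42 and 106 of 226, and under 50 RPKM 29 of 49 and 103 of 273. In gene order, 4 runs of equal size along the chromosome had 71.0%, 53.3%, 80.0% and 66.7% of their listed genes above 0. Without genes whose windows occur mostly in other genes the share was 67.2% against 43.0%.

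The same line Allo733 was listed against the other crosses. On chromosome 4, 49.7% of genes lay above 0 for the C24 cross (42.5% elsewhere) and 44.6% for the Ler cross (42.9% elsewhere). These comparisons share the Allo733 library with the one described here. A comparison of crosses alone does not use that library. Over all genes with values in both, the median log2 ratio of the Col cross over the Ler cross was 0.09 on chromosome 4 and -0.07 elsewhere. That of the Col cross over the C24 cross was 0.23 and 0.10, whereas that of the C24 cross over the Ler cross was -0.16 and -0.19. Chromosome 4 thus stood 0.16 and 0.14 above the other chromosomes in the comparisons that hold the Col library, and 0.02 above them in the one that does not.

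The offset ran along the whole chromosome. Chromosome 4 was divided into 10 runs of genes in order, and the other chromosomes into 55 runs of similar size. For the Col over the Ler cross the chromosome 4 runs stood between 0.11 and 0.19 above the median of the other chromosomes, while the highest of the 55 other runs stood at 0.08. For the Col over the C24 cross they stood between 0.09 and 0.17, beside 0.09 for the highest other run. All 10 runs for the Ler cross lay above every run elsewhere, and 9 of 10 for the C24 cross. Counted by allele, the offset against the Ler cross was 0.16 for A. thaliana RPKM and 0.07 for A. arenosa RPKM, where low values carry the added 0.1 RPKM with more weight. The median A. arenosa share on chromosome 4 was 4.58%, beside 4.79% to 5.09% on the others. The cause was not tested.

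**Figure D5:**
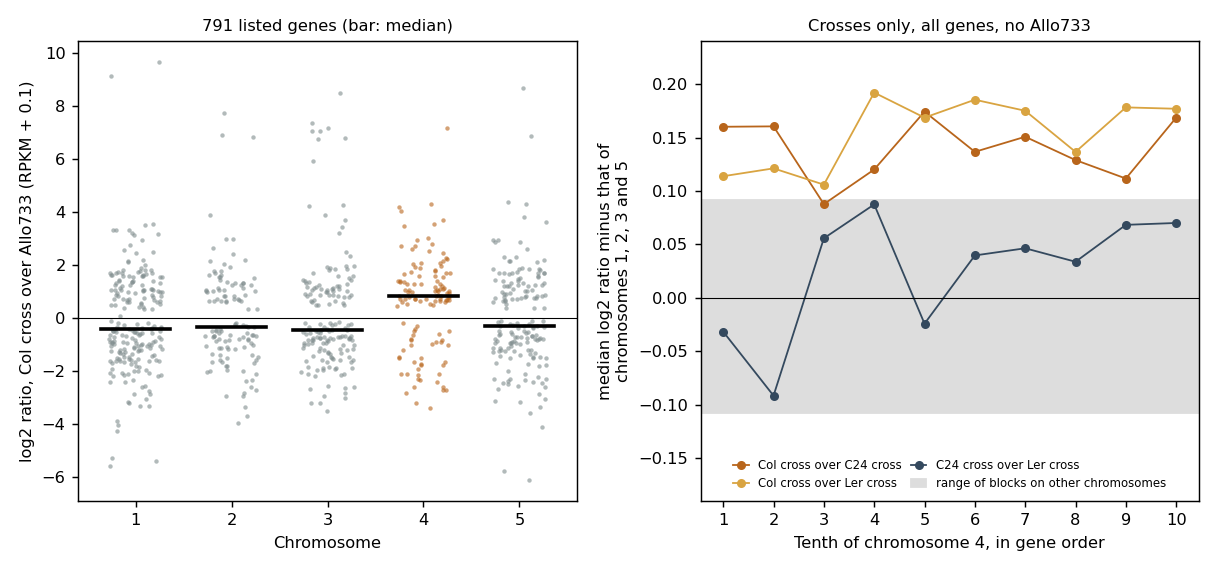
Left, log2 ratio of the Col cross over Allo733 (y axis, RPKM + 0.1) for the 791 listed genes by chromosome (x axis), with medians as bars: 0.82 on chromosome 4 and below 0 on the other 4. Right, median log2 ratio between crosses in 10 consecutive runs of chromosome 4 genes (x axis, gene order), after the median of the other chromosomes was taken off (y axis), with the range of runs on the other chromosomes over all 3 comparisons in grey: the lines that hold the Col cross lie between 0.09 and 0.19.

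Neighbouring genes were counted apart from this. Among protein-coding genes in chromosome order, 39 adjacent pairs were listed together. In 8 pairs both were higher, in 5 both were lower and in 4 one was higher and the other lower. Over the whole list 31.9% of genes were higher and 29.1% lower, and the counts are given as a description. One of the higher pairs, AT5G48480 with DIR1, is not a pair of separate readings, since 100% of the windows of DIR1 also occur in AT5G48480. The lower pairs included KIN1 with AT5G15950, AT5G24155 with the squalene monooxygenase gene SQE6, and AT4G12890 with AT4G12900. The last pair belongs to a family of thiol reductases of which 3 of 5 genes were listed, all lower, at 93.0 against 264, 10.7 against 70.9 and, for AT4G12870, 503 against 1378 RPKM.

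Promoters of listed genes were searched for short motifs. The 250 bases before the start were read for 771 listed genes and 27443 genes in all, and motifs were searched on both strands. The G-box CACGTG, bound by bHLH and bZIP factors, occurred in 7.38% of promoters of higher genes, 8.18% of lower genes and 6.49% of all promoters. The TATA box TATAAA occurred in 47.5%, 55.5% and 47.3%. The abscisic acid element ACGTGTC, which shares ACGTG with the G-box and overlaps it wherever a C stands before, occurred in 5.74%, 2.27% and 3.68%, which are 14 promoters of higher and 5 of lower genes. The W-box TTGACC, bound by WRKY factors, occurred in 9.43%, 13.2% and 12.2%, and the evening element AAAATATCT of clock-regulated genes in 2.46%, 4.09% and 2.36%. No test was run on these shares. The I-box GATAAG of light-regulated genes was in 7 of 22 promoters of the listed photosystem genes, beside 12.3% of all promoters. The cold element was searched only in the form GCCGAC. This form was in none of the 9 promoters of listed cold genes within this window, KIN1 and KIN2 included, and in 2.56% of all promoters. With so low a share, its absence from 9 promoters does not set them apart, and other forms were not searched.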

How the data were processed

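Poly(A) RNA of siliques was sequenced by the submitters with 1 Illumina library for each of 3 F1 crosses and for Allo733, per the labels' protocols. The authors deposited RPKM values per transcript, as the file headers name them, on genome build TAIR9 per the submitters' processing notes. The mapping tool, the counting and the rule that chose the listed transcripts were not given in the sources used here; read depth is unknown. A second deposited table gives RPKM per species' allele for the Col cross.

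Each gene took the transcript with the highest mean of both libraries. Ratios are log2((Col + 0.1) / (Allo733 + 0.1)), which understate the change of low genes, and 2-fold was the rule of size. With 1 library a side no test was run. Repeated header lines in the allele table (4) were dropped. Gene names came from RefSeq's annotation of TAIR10.1, which matched 789 of 791 codes, 477 with a symbol. Python 3, pandas and numpy did the arithmetic, checked on simulated data.

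The genes, the lists and the groups were chosen with earlier results of these data known. Named genes are the 14 per direction with the largest ratio and at least 5 RPKM, the 6 per direction with the highest level, the 4 per direction with the highest A. arenosa share and up to 6 per list. Since the 14 largest higher ratios all had Allo733 at 0, the same rule was repeated on genes above 0 and on genes with 1 transcript. The groups said to be drawn up afterwards, their members, adjacent genes, PSBP-1, PSBP-2, HPL1 and chromosome 4 were picked after the values were seen.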

Additional observations from a re-analysis of the deposited data

How the results depend on the processing

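No paired analysis was possible because each group had 1 library, and no library could be left out. The counts of higher and lower genes stayed within 1.5 times of 252 and 230 under a pseudocount of 1, a mean of at least 5 RPKM, all transcripts, the transcript with the lowest mean, summed transcripts, genes with 1 transcript, the allele table, and without genes at 0, without near-identical copies or without chromosome 4. At 4-fold they were 84 and 93. Centring on the median of all listed genes shifted every ratio by 0.25, made that median 0, and changed the calls to 305 higher and 185 lower, or 62.2% of calls higher in place of 52.3%. Centring also took the medians of lipid transfer proteins and of the cuticle to 1.01 and 1.07 and turned that of iron genes to 0.11. With genes of 1 transcript in both tables the median of the myrosinase and specifier list turned from 1.20 to -0.46, because TGG1, TGG2 and ESP have further transcripts, and that of the jasmonate list went to -1.35. The share of chromosome 4 genes above 0 ranged over these alternatives from 65.2% to 68.6%. Of 123 named genes, summing transcripts ended the 2-fold call of 3 and turned the sign of 1, and centring ended 8, added 4 and turned the sign of 4. Centring on reference genes was not run, since 2 of them were listed. Depth is unknown, so no limit of detection is given.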

Other observations

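The transcripts of 18S ribosomal RNA were listed for more than one copy. AT3G41768 stood at 1187 RPKM in the Col cross and 337 in Allo733, and AT2G01010 at 24.9 and 87.8 RPKM. The copies had log2 ratios of 1.81 and -1.81. Of the 36-base windows of AT3G41768 95.9% also occur in AT2G01010, and 95.9% the other way, so most reads cannot be assigned to one copy and the separate values of AT3G41768 and AT2G01010 are uncertain. In the Col cross the A. arenosa shares were 7.95% and 8.16%.

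Among genes of other processes, SQE6, annotated as a squalene monooxygenase, stood at 3.21 RPKM against 39.6, and its neighbour AT5G24155 at 10.0 against 59.0 RPKM. JAZ repressors of jasmonate signalling split: JAZ6 stood at 88.6 against 43.8 RPKM and JAZ3 at 9.77 against 37.2. Cytochromes P450 had 9 of 248 genes listed, 5 higher and 4 lower, and none between. Genes described as hypothetical or unknown proteins had 34 listed, 18 higher and 11 lower. Over the whole list 31.9% were higher and 29.1% lower.

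Among genes listed against Allo733 for the Col cross and for neither other cross, 30 of 39 on chromosome 4 lay above 0 (76.9%), beside 67 of 130 elsewhere (51.5%).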
